A study of Mus musculus with 22 samples.

Results

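The CD44Neg population is the VE-Cadherin+ endothelium of the aorta-gonad-mesonephros region (AGM) that lacks surface CD44, and it was compared here between embryonic days E11 and E10. The 6 libraries compared were chosen by their labels alone, 3 of CD44Neg cells at E11 and 3 at E10, out of 22 libraries in the series. Each library was made by SMART-Seq2 from the polyA RNA of 25 cells sorted from wild-type C57BL/6 mouse embryos, with no treatment and no transgene. A further 4 CD44Neg libraries from E9.5 entered the fit to estimate the spread between libraries, and 5 libraries of the neighbouring CD44LowKitNeg endothelium (VE-Cadherin+, low CD44, no Kit; 2 at E10 and 3 at E11) were used for comparison.

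The AGM holds the dorsal aorta and the veins beside it, and its arterial floor is where endothelial cells become haemogenic and release the first blood stem and progenitor cells. CD44Neg cells are the endothelium that lacks the surface antigen of cells on that path. Growing embryonic vessels are known to acquire caveolae, fatty acid handling and a denser basement membrane as they mature, while the genes of early embryonic growth are shut down.

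Every E11 library has the same date in its label and every E10 library another, so stage and label date cannot be told apart anywhere below. Whether the 3 libraries of a stage came from separate litters is not given in the sources used here, so p-values measure only the spread between libraries, which may be technical. Between 3912350 and 6652450 reads were counted per library at E11 and between 4049022 and 5152841 at E10, and 11868 to 11993 genes had counts at E11 against 11307 to 11734 at E10. Rn45s, the precursor of ribosomal RNA, made up 15.2% to 17.9% of the E11 counts and 9.11% to 19.3% of those from E10. By Euclidean distance on log2 CPM over 11250 genes, the E11 libraries lay 132.1 apart on average, the E10 libraries 163.9, and libraries of different stages 155.2. The 3 E11 libraries lay 127.9 to 134.8 from each other and at least 144.8 from any E10 library, whereas each of the 3 E10 libraries lay nearer to an E11 library than to another E10 library.

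The endothelial label held in all 6 libraries. Plvap, which forms the diaphragms of endothelial pores, was at 1314, 1271 and 1575 normalized CPM (read counts scaled to library size by TMM) at E11 and at 1508, 1556 and 1321 at E10. Emcn, an endothelial sialomucin, was at 1536, 1067 and 1125 against 1210, 1101 and 1296, and the tight junction gene Cldn5 at 1032, 1171 and 892 against 1169, 1049 and 817. The ranges of the stages overlapped for all 3 genes. Cdh5, which encodes the sorting antigen VE-Cadherin, was at 260, 373 and 451 at E11 and at 324, 490 and 656 at E10 (edgeR adjusted p = 0.695). Cd44 transcripts were at 14.8, 2.18 and 22.4 against 22.9, 18.3 and 57.0, with overlapping ranges, and Kit transcripts were at 54.6, 67.0 and 85.0 against 60.9, 60.1 and 18.8.

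Markers of other cell types had counts in both stages. The summed level of 14 macrophage genes was 7.45 to 20.2 CPM at E11 and 1.22 to 14.2 at E10, with 10 of the 14 at 0 in all 6 libraries. Mrc1, which is also in the venous and lymphatic list, made up 12.6, 10.5 and 7.45 of the E11 sums of 20.2, 11.9 and 7.45. The other tested members, Fcer1g and Cd68, had log2 fold changes of E11 over E10 of -1.21 and -0.99 (edgeR adjusted p = 0.955 and 0.948). Erythroid genes summed to 8.61 to 24.1 against 3.66 to 14.5, and mesenchymal genes to 0.48 to 17.8 against 4.75 to 112. The highest mesenchymal sum came from replicate 10 at E10, where Acta2, the smooth muscle actin gene, stood at 108 against 4.26 and 4.07 in the other E10 libraries and at most 2.18 at E11. Pdgfra, of the same list, had 29 counts at E11 and 0 at E10. Kidney and gonad epithelium genes summed to 0.81 to 11.4 CPM at E11 and 0.81 to 6.78 at E10, with Gata4 at 72 counts against 0. Skeletal muscle and somite genes, Meox1 among them, summed to 15.1 to 34.9 against 10.1 to 21.3. Neural genes summed to 114 to 157 CPM at E11 and 122 to 150 at E10, most of it from Stmn2 (82.1, 108 and 67.1 against 46.3, 24.2 and 51.3) and the intermediate filament gene Nes (30.4, 44.1 and 34.6 against 45.9, 119 and 58.1). Sex-linked transcripts are given because pools of embryos can differ in sex. Xist, the RNA of the inactive X chromosome of females, was at 473, 340 and 576 at E11 and at 261, 228 and 266 at E10, and the Y-linked Eif2s3y was at 23.1, 6.53 and 51.9 against 26.2, 92.9 and 116. The ranges of Xist did not overlap, and both genes had counts in every library. What part these markers had in the results below was not tested.

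Few genes separated the stages beyond the spread between libraries. Of 11250 genes tested with edgeR's quasi-likelihood test and Benjamini-Hochberg adjustment, 6 passed an adjusted p of 0.05, which is 0.0533% of the genes tested, with 4 higher at E11 (0.0356%) and 2 lower (0.0178%). Below, a gene is called by this edgeR fit of 10 libraries unless another tool or fit is named. The genes that rose were Sparcl1, B2m, Abi2 and Akr1c14, and those that fell were Clu and Prtg. None passed 0.01, and 19 passed 0.10 (0.169%), with 13 higher (0.116%) and 6 lower (0.0533%). An unadjusted p under 0.05 was reached by 977 genes (8.68%), of which 524 were higher (4.66%) and 453 lower (4.03%). Over all genes, 48.4% had a log2 fold change above 0 and the median was -0.02. In the same fit, E10 against E9.5 called 105 genes (0.933%) and E11 against E9.5 called 352 (3.13%), comparisons that share libraries with the present one. The 6 calls depended on single libraries, since leaving out E11 replicate 1, E11 replicate 2, E10 replicate 10 or E9.5 replicate 7 left 0 calls, and DESeq2 on the same libraries called 104 genes, the 6 among them.

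The locations of the 6 genes on GRCm38.p6, the assembly that corresponds to the mm10 build named in the submitters' processing notes, are chr14:65968483-65981548 for Clu, chr2:122147687-122153082 for B2m, chr1:60405768-60481945 for Abi2, chr9:72807274-72917307 for Prtg, chr5:104079108-104114088 for Sparcl1 and chr13:4048991-4090560 for Akr1c14. Counts were made per gene, over its annotated exons. RefSeq promoter windows, from 250 bases before to 50 bases after a gene's start, were at hand for 3 of the 6 genes, B2m, Prtg and Akr1c14, and are shown as the sequence around an annotated start of a called gene. Those of B2m and Prtg lie at the start of the interval given above, whereas that of Akr1c14 lies inside its interval and so does not mark the start of the locus. Capitals mark matches, on either strand, to GGGCGG (GC box), CCAAT and TATAAA. No match overlapped another.
B2m (chr2:122147437-122147736, + strand): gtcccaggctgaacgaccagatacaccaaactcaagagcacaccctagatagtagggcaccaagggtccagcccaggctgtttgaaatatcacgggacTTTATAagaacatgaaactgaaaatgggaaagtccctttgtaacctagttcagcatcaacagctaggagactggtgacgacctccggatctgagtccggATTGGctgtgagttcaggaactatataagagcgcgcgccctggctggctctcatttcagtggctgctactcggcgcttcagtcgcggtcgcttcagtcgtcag
Prtg (chr9:72807024-72807323, + strand): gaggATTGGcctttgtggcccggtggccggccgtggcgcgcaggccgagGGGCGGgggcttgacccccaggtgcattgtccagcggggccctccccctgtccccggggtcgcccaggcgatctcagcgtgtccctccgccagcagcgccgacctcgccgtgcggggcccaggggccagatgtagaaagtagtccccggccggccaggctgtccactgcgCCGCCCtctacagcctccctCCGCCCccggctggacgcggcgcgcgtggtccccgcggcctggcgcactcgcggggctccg
Akr1c14 (chr13:4059341-4059640, + strand): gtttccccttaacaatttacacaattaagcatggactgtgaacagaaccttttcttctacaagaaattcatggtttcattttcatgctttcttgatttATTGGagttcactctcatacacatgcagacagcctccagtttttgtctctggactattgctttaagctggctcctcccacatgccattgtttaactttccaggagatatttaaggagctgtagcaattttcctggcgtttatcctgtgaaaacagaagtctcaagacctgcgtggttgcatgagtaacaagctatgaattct
Of 32544 distinct windows in the RefSeq table, GGGCGG was in 35.9%, CCAAT in 37.4% and TATAAA in 13.6%. The window of B2m held 1 match each to CCAAT and TATAAA, and that of Akr1c14 held 1 to CCAAT. The window of Prtg held 3 GC boxes and 1 CCAAT and had a GC content of 76.7%, against 39.7% for Akr1c14, 52.3% for B2m and a median of 53% over all windows. These matches describe the letters of the windows and were not tested against the expression values.

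**Figure D1:**
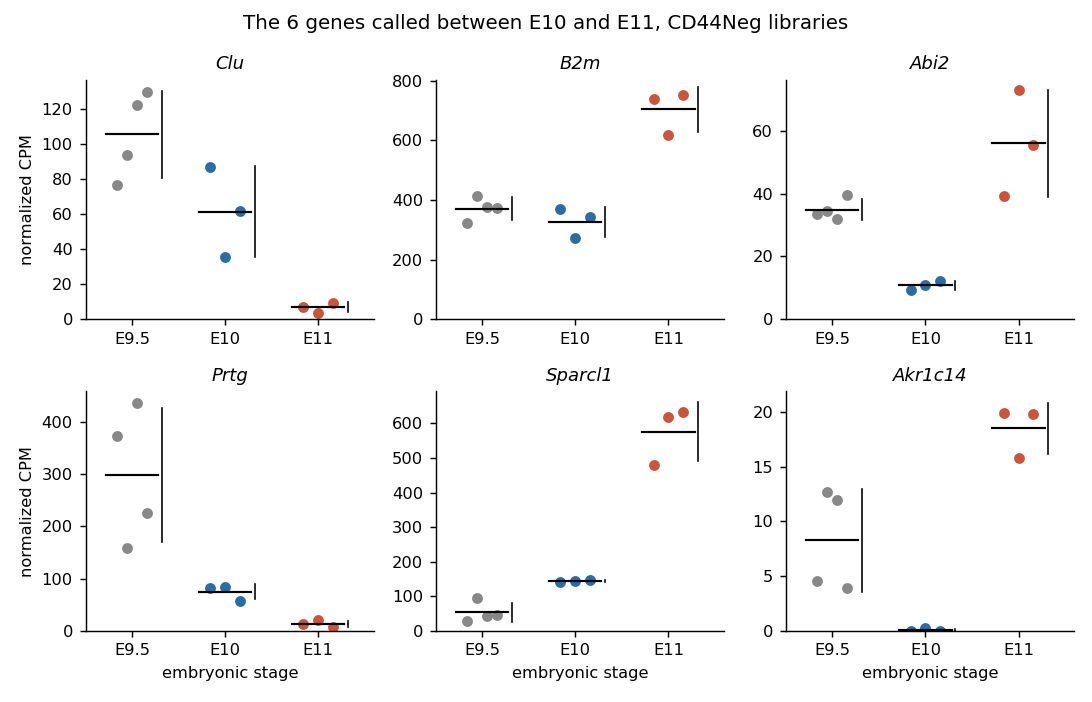
Normalized CPM (vertical axes, from 0) of the 6 genes called between E10 and E11 in each CD44Neg library at E9.5, E10 and E11 (points), with the mean (horizontal line) and 1 SD (vertical line). For every gene all 3 E11 libraries lie on the same side of all 3 E10 libraries. For Akr1c14 and Abi2 the E10 libraries lie below those of both other stages, whereas Sparcl1 has its highest libraries and Prtg its lowest at E11.

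Clu encodes clusterin, a secreted chaperone. It was at 7.0, 3.76 and 9.36 normalized CPM at E11 and at 87.1, 35.3 and 61.8 at E10, so the lowest E10 library lay well above the highest E11 library. The log2 fold change was -3.18 with a standard error (SE) of 0.42 (edgeR adjusted p = 0.0225, the smallest of all genes). The 4 E9.5 libraries lay at 76.5 to 130, on the E10 side. Clu was called in 13 of 20 alternative analyses and kept its direction in all 20.

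Prtg encodes protogenin, an immunoglobulin-family receptor of early embryonic tissues. Its level was 12.4, 19.8 and 8.09 at E11 against 82.6, 83.9 and 57.7 at E10, and 158 to 437 in the E9.5 libraries. Every later stage was thus below every earlier one, and the log2 fold change from E10 to E11 was -2.48 (SE 0.40, edgeR adjusted p = 0.0373).

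Sparcl1, a secreted matrix protein related to Sparc and found in mature vessels, rose. It was at 479, 618 and 632 at E11 against 142, 143 and 147 at E10, where the libraries were nearly equal, and at 29.4 to 94.2 at E9.5. The log2 fold change was 2.00 (SE 0.32, edgeR adjusted p = 0.0373). Sparcl1 was the only gene that passed when the fit held the 6 libraries alone.

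B2m, the light chain of MHC class I molecules, rose as well. It was at 739, 618 and 753 at E11 against 369, 271 and 341 at E10, a log2 fold change of 1.10 (SE 0.17, edgeR adjusted p = 0.0373). The E9.5 libraries were at 323 to 414 and so overlapped those of E10. Of the 13 interferon and antigen presentation genes tested, B2m was the only member called, and an unadjusted p under 0.05 was reached by 3, all higher at E11 (4.66% of all genes tested were higher at this p), and by 1 without E10 replicate 9. The others were Ifitm3, an interferon-induced membrane protein at 103, 95.3 and 112 against 76.5, 36.4 and 69.6, and Bst2, tetherin, at 67.0, 65.7 and 79.8 against 50.7, 38.2 and 44.2. Neither gene's E10 and E11 ranges overlapped, and neither was called (edgeR adjusted p = 0.477 and 0.567). At E9.5 Ifitm3 was at 78.8 to 113, above every E10 library, and Bst2 at 24.3 to 49.2.

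Abi2 encodes a subunit of the WAVE complex, which drives branching of actin. It was at 39.3, 73.2 and 55.7 at E11 against 9.34, 10.8 and 12.1 at E10, a log2 fold change of 2.38 (SE 0.37, edgeR adjusted p = 0.0373). The E9.5 libraries, at 31.8 to 39.7, lay above all of E10, and the highest of them lay just above the lowest E11 library. Akr1c14, an aldo-keto reductase that acts on steroids and a marker of CD44LowKitNeg cells in the study, also had its lowest libraries at E10. It was at 19.9, 15.8 and 19.8 at E11, at 0, 0.23 and 0 at E10 and at 3.88 to 12.7 at E9.5 (edgeR adjusted p = 0.0373). The E11 libraries held 279 counts and the E10 libraries 1, a ratio of normalized levels of 254 with a 95% counting interval of 45.2 to 10062. The interval covers counting error only, because reads without molecular identifiers are not independent molecules. Akr1c14 has closely related copies beside it in the genome, and how reads shared between them were counted is not given in the sources used here. In libraries of 25 cells, fewer cells expressing a gene and less RNA per cell cannot be told apart.

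**Figure D2:**
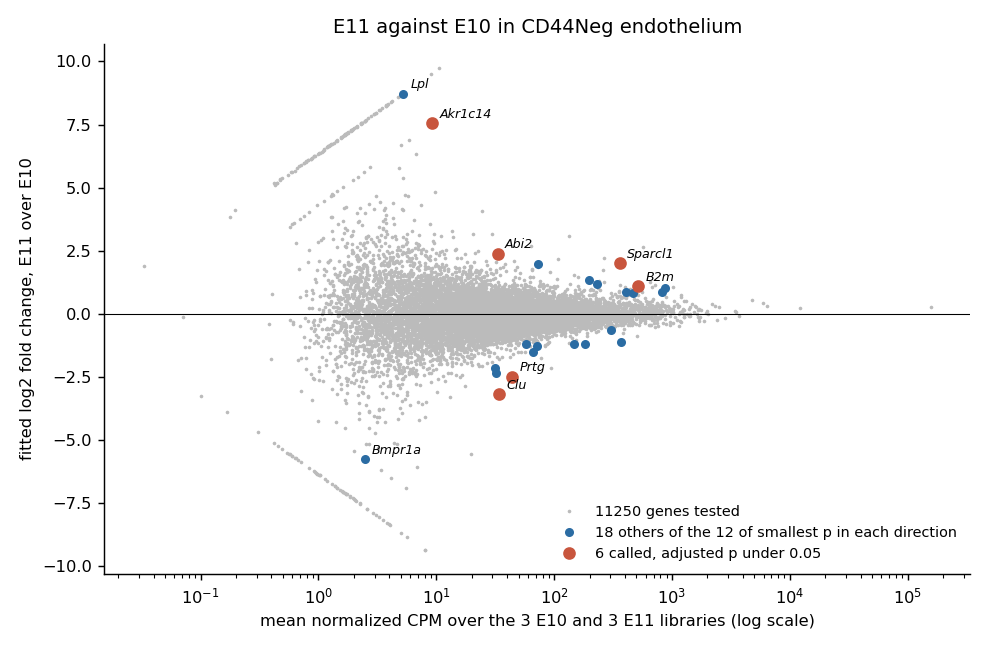
Fitted log2 fold change of E11 over E10 (vertical axis) against the mean normalized CPM of the 6 libraries (horizontal axis, log scale) for 11250 genes, with the 6 called genes and the other 18 of the 12 genes of smallest p in each direction marked and those beyond 4 in size or called named. Genes with counts in a single stage form the diagonal edges at the left. The called genes lie at mean levels of about 10 CPM and above.

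The other genes among the 12 of smallest p in each direction were not called and are given by what they encode. Pecam1 (CD31, an adhesion molecule of endothelial junctions) was at 1113, 1139 and 1240 at E11 against 747, 456 and 525 at E10, a log2 fold change of 1.02 (SE 0.18, edgeR adjusted p = 0.0692). Cd93, a lectin-like receptor of endothelial adhesion, was at 558, 602 and 626 against 324, 332 and 346, a log2 fold change of 0.83 (SE 0.14, edgeR adjusted p = 0.0692). At E9.5 Pecam1 was at 351 to 446, below every E10 library, and Cd93 at 413 to 514, above every E10 library. In both genes the E10 and E11 libraries did not overlap, which was so for 8.1% of all genes in the direction of higher E11. DESeq2 and limma voom called both.

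Lpl, lipoprotein lipase, had 166 counts over the E11 libraries and 0 over those of E10. It was thus at least 15.9-fold higher at E11, taking 3 counts per library as the most that a count of 0 allows (edgeR adjusted p = 0.0744). At E9.5 it was again present, at 3.24 to 15.9 CPM, so the order of the stages was not monotonic. Of genes of retinoid handling, 2 were chosen after their values were seen. Stra6, the retinol importer, was at 3.5, 16.2 and 0 against 0 in all E10 libraries, and Cyp26a1, which degrades retinoic acid, was at 0, 0 and 1.27 against 3.86, 7.01 and 2.29. At E9.5 Stra6 was at 0 to 16.6 and Cyp26a1 at 17.4 to 36.8. The E10 and E11 ranges overlapped for Stra6 but not for Cyp26a1, and neither was called (edgeR adjusted p = 0.501 and 0.422). Of 12 retinoid genes tested, 2 were higher and 1 lower at an unadjusted p under 0.05 (4.66% and 4.03% of all genes). Their median log2 fold change was -0.11, and 0 were called by edgeR.

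Among the annexins, which bind membranes in the presence of calcium, Anxa2 was at 1037, 883 and 1295 at E11 against 645, 498 and 617 at E10 (log2 fold change 0.87, SE 0.16, edgeR adjusted p = 0.0744), and Anxa6 at 497, 513 and 564 against 290, 311 and 263 (log2 fold change 0.87, SE 0.16, edgeR adjusted p = 0.0744). Anxa5, at 748, 654 and 754 against 435, 317 and 443, and Anxa3, at 469, 412 and 554 against 273, 285 and 336, were chosen after their values were seen. At E9.5 Anxa2 was at 728 to 813, Anxa5 at 599 to 781 and Anxa3 at 374 to 544, each above every E10 library. Anxa5 and Anxa3 at E9.5 also overlapped E11. Anxa6, at 248 to 324, overlapped E10. All 4 had E11 libraries above every E10 library (8.1% of all genes), 4 of 7 annexins tested had an unadjusted p under 0.05, all in this direction (4.66% of all genes), and 0 were called by edgeR. DESeq2 called these 4, and limma voom and edgeR with no filter on low counts called Anxa2, Anxa5 and Anxa6. The annexin list itself was drawn up after values had been seen. S100a16, of the S100 family of calcium-binding proteins, was at 504, 420 and 590 against 279, 159 and 243 (log2 fold change 1.15, SE 0.24, edgeR adjusted p = 0.132).

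Sncg, gamma-synuclein, was at 85.0, 147 and 120 against 37.3, 35.5 and 16.3 (log2 fold change 1.98, SE 0.36, edgeR adjusted p = 0.0744). Pls3, the actin bundler plastin 3, was at 305, 376 and 286 against 152, 101 and 176 (log2 fold change 1.17, SE 0.22, edgeR adjusted p = 0.0744). For both genes the stages did not overlap.

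On the lower side, Bmpr1a, the type I receptor of bone morphogenetic proteins (BMPs), had 1 count over the E11 libraries and 67 over those of E10, a ratio of 0.0136 with a 95% counting interval of 0.00034 to 0.0783 (edgeR adjusted p = 0.0744). Its level was 0, 0.2 and 0 CPM against 4.67, 2.94 and 7.10, and it was 12.7 to 27.9 at E9.5. Hapln1, which links hyaluronan, the ligand of CD44, to proteoglycans, was at 219, 287 and 195 against 491, 372 and 651, and at 688 to 1058 at E9.5 (log2 fold change -1.11, SE 0.22, edgeR adjusted p = 0.1002). Both genes had their highest libraries at E9.5 and their lowest at E11. Bex2, of the brain-expressed X-linked family, was at 21.3, 51.6 and 30.4 against 94.6, 93.3 and 109.9 and had the same order, with 113 to 152 at E9.5 (edgeR adjusted p = 0.0798).

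The remaining genes of smallest p on the lower side concern RNA and protein synthesis or have less certain roles. Iars, which charges tRNA with isoleucine, was at 97.1, 111 and 125 against 196, 333 and 225 (log2 fold change -1.18, SE 0.22, edgeR adjusted p = 0.0744). Hnrnpu, a nuclear RNA-binding protein, was at 248, 244 and 223 against 351, 377 and 383 (log2 fold change -0.64, SE 0.15, edgeR adjusted p = 0.199). Cluh, which binds mRNAs of mitochondrial proteins, was at 7.26, 15.03 and 11.9 against 46.1, 72.6 and 35.0. Stages were apart for all 3 genes. Rbbp6, Tfec, Fam136a and Exoc3l4 completed the set, with log2 fold changes of -1.26, -2.33, -1.19 and -1.19 and edgeR adjusted p of 0.219, 0.195, 0.0744 and 0.182. Iars was joined by 3 other cytosolic aminoacyl-tRNA synthetases, Aars, Hars and Nars, at an unadjusted p under 0.05. Of 20 tested, 4 were lower and 0 higher at that p (4.03% and 4.66% of all genes), a list also drawn up after values had been seen.

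Lists of genes with known roles were then described by their counts. The list of endothelial maturation and transport had 29 members, of which 22 were tested. Sparcl1 was its only member called by edgeR, while DESeq2 called 6 (Sparcl1, Cav1, Cav2, Lpl, Fabp4 and Abcg2) and limma voom 2 (Sparcl1 and Cav1), all higher. At an unadjusted p under 0.05, 9 were higher and 2 lower, against 4.66% and 4.03% of all genes, and the median log2 fold change was 1.03 against -0.02 over all genes. The higher count ranged from 6 to 13 and the median from 0.96 to 1.72 when each of the 6 libraries was left out in turn. Setting the 3 members without counts in 1 of the stages at their bounds left the median at 1.03. Each bound lay on the same side of the median as the fitted value, so this step could not move it.

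Both caveolins are in this list. Cav1, the coat protein of caveolae, was at 752, 900 and 1319 at E11 against 155, 74.6 and 244 at E10 and 6.36 to 68.7 at E9.5 (log2 fold change 2.65, SE 0.58, edgeR adjusted p = 0.178). Cav2, its partner, was at 186, 169 and 348 against 79.1, 53.1 and 125 (log2 fold change 1.45, SE 0.39, edgeR adjusted p = 0.304). DESeq2 and edgeR with no filter on low counts called both, limma voom and edgeR without E9.5 replicate 6 called Cav1, and the edgeR fit of 10 libraries called neither. Of 8 caveolar genes tested, the 2 caveolins were higher and 1 gene lower at an unadjusted p under 0.05 (4.66% and 4.03% of all genes), and the median log2 fold change was 0.00, for a list drawn up after values had been seen.

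The 2 lower members were Bmp6, described with the BMP pathway, and Igfbp4, a binding protein of insulin-like growth factors, at 415, 429 and 437 against 512, 547 and 610 (log2 fold change -0.38, SE 0.16, edgeR adjusted p = 0.533). Genes of fatty acid uptake are in the list too. Gpihbp1, which carries lipoprotein lipase across capillary endothelium, was at 46.0, 39.4 and 68.7 at E11 against 30.8, 14.5 and 7.32 at E10. The fatty acid carrier Fabp4 was at 9.96, 13.1 and 33.8 against 1.22, 0.68 and 0, with 0 in all 4 E9.5 libraries, and its relative Fabp5 was at 85.3, 93.2 and 157 against 71.4, 45.4 and 35.7. These genes were chosen after their values were seen, and their ranges did not overlap between the stages. Their log2 fold changes were 1.55 (SE 0.54) for Gpihbp1, 4.84 (SE 1.43) for Fabp4 and 1.14 (SE 0.38) for Fabp5, and none was called (edgeR adjusted p of 0.453, 0.392 and 0.449). The exporter Abcg2 was at 441, 463 and 494 against 337, 150 and 250, and Meox1, a homeobox gene also expressed in somites, had 104 counts at E11 and 0 at E10, at least 10.6-fold higher.

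None of the tip and sprouting genes was called by edgeR, and DESeq2 called Kcne3 and Rgcc. Of 18 tip and sprouting genes tested, 6 were higher and 0 lower at an unadjusted p under 0.05 (4.66% and 4.03% of all genes), and the median log2 fold change was 0.61 (0.43 to 0.80 without each library in turn). Igfbp3, a binding protein of insulin-like growth factors, was at 742, 839 and 1161 at E11 against 271, 419 and 450 at E10 (log2 fold change 1.27, SE 0.41, edgeR adjusted p = 0.423). Kcne3, a potassium channel subunit of tip cells, was at 507, 271 and 414 against 168, 65.3 and 127 (log2 fold change 1.72, SE 0.38, edgeR adjusted p = 0.182). Stages did not overlap in either gene, and edgeR with no filter on low counts called both. Rgcc, a regulator of the cell cycle, was at 45.2, 41.7 and 23.5 against 6.49, 0 and 5.72 (log2 fold change 3.16, SE 0.97, edgeR adjusted p = 0.379). Esm1, the tip cell proteoglycan endocan, was at 78.6, 14.2 and 67.9 against 4.67, 0 and 13.3, with 0 to 150 at E9.5. Among basement membrane genes, the laminin chain Lama4 was at 249, 302 and 325 against 173, 179 and 125, and Nid2 at 141, 146 and 196 against 54.0, 68.7 and 134. Fn1, fibronectin of the provisional matrix, had the opposite sign, at 221, 233 and 409 against 509, 364 and 576, with overlapping ranges. Lama3, another laminin chain, was lower as well, at 4.57, 2.18 and 0.63 against 42.2, 10.2 and 18.8, without overlap (log2 fold change -3.29, SE 1.05, edgeR adjusted p = 0.419). Over the 28 basement membrane and matrix genes tested, 5 were higher and 2 lower at an unadjusted p under 0.05 (4.66% and 4.03% of all genes), the 2 lower ones being Fn1 and Lama3. Without each library in turn, 4 to 6 were higher and 1 to 3 lower, and the median of 0.22 ran from 0.04 to 0.30.

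No endothelial identity gene was called by edgeR, while DESeq2 called 5 and limma voom 2. Of 30 tested, 7 were higher and 0 lower at an unadjusted p under 0.05 (4.66% and 4.03% of all genes), and the median log2 fold change was 0.11. Without each library in turn, 6 to 8 were higher and 0 to 2 lower, with 2 lower without E11 replicate 3, and the median ran from 0.08 to 0.25, the latter without E10 replicate 9. Beside Pecam1 and Cd93 the higher ones were the transcription factors Sox18 and Sox7, Icam2, Ramp2 and Eng. Sox18 was at 725, 468 and 548 at E11 against 269, 317 and 295 at E10 (log2 fold change 0.98, SE 0.24, edgeR adjusted p = 0.222), and Sox7 at 305, 356 and 316 against 152, 141 and 211 (log2 fold change 0.95, SE 0.24, edgeR adjusted p = 0.274). Icam2, an adhesion molecule, was at 650, 566 and 718 against 341, 421 and 390 (log2 fold change 0.75, SE 0.16, edgeR adjusted p = 0.14). Each of the 3 had non-overlapping stages and was called by DESeq2. By contrast, the VEGF receptor Kdr was at 476, 526 and 672 against 486, 497 and 402, and the angiopoietin receptor Tek at 348, 454 and 454 against 483, 495 and 474.

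**Figure D3:**
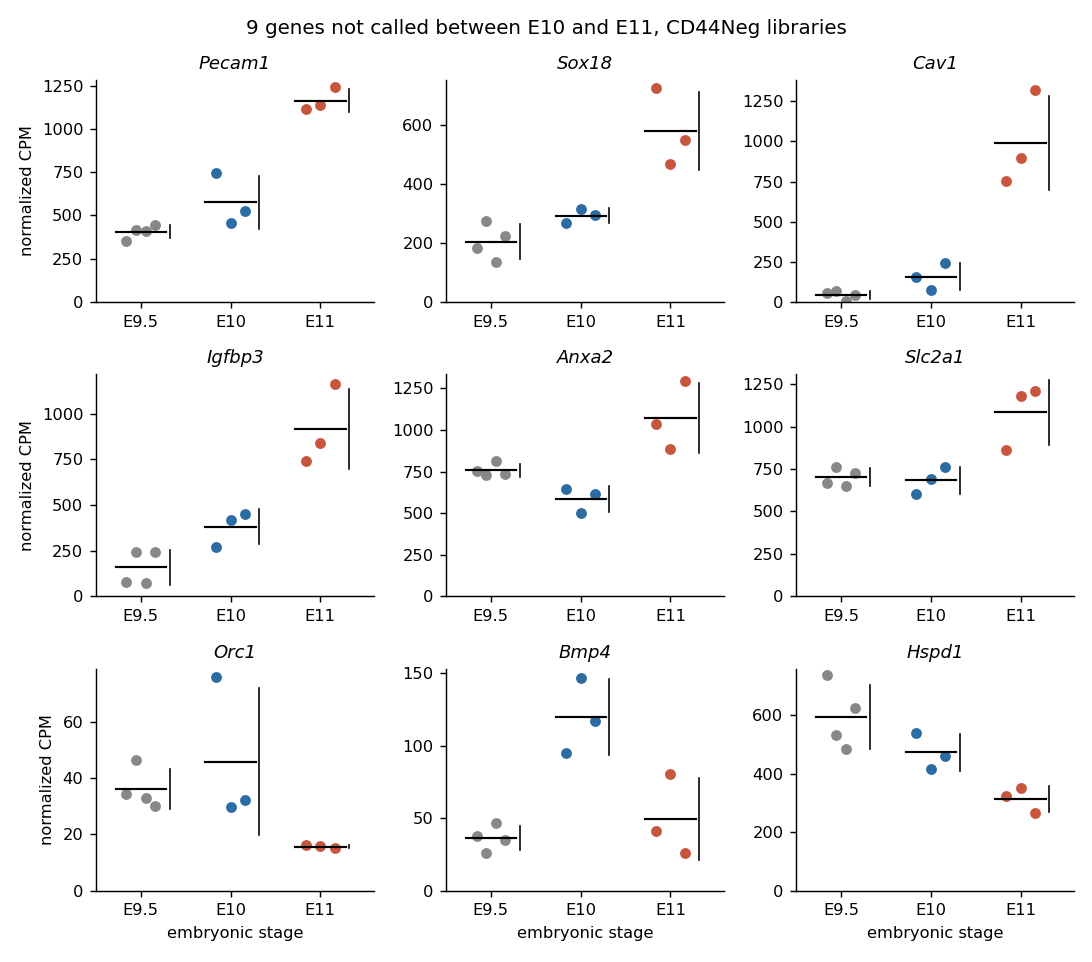
Normalized CPM (vertical axes, from 0) in each CD44Neg library at E9.5, E10 and E11 (points), with the mean (horizontal line) and 1 SD (vertical line), for 9 genes that were not called between E10 and E11, chosen after their values were seen. Pecam1, Cav1 and Anxa2 lie higher in every E11 library than in any E10 library, Orc1 and Hspd1 lower, and Bmp4 is highest at E10.

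Arterial and venous genes gave no call by edgeR either, and DESeq2 called Reln alone among them. Of 21 arterial genes tested, Gja4 (connexin 37) and Sox17 were higher at an unadjusted p under 0.05 and 0 were lower, beside 4.66% and 4.03% of all genes. The higher count was 6 without E10 replicate 10 and 1 without E11 replicate 1 or E10 replicate 8, and the median of 0.28 ran from 0.05 to 0.38 when single libraries were left out. Gja4 was at 520, 652 and 554 at E11 against 237, 357 and 322 at E10 (log2 fold change 0.92, SE 0.28, edgeR adjusted p = 0.395), and Sox17 at 197, 140 and 174 against 43.6, 82.3 and 131. Of 15 venous and lymphatic genes, Mrc1 and Reln were higher and 0 were lower, and 5 were higher without E10 replicate 9. Mrc1, the mannose receptor of veins and of macrophages, was at 12.6, 10.5 and 7.45 against 0.2, 0.45 and 0. It enters the macrophage sums given above, so those are not a separate result. Its counts were 147 and 3, a ratio of normalized levels of 44.6 with a 95% counting interval of 14.96 to 219. Reln had 108 counts at E11 and 0 at E10, most of them in replicate 1 at 19.1 CPM against 2.18 and 4.12. The venous regulator Nr2f2 was at 91.2, 116 and 118 against 113, 180 and 168 (edgeR adjusted p = 0.771), and the apelin receptor Aplnr at 722, 643 and 355 against 806, 571 and 531 (edgeR adjusted p = 0.941), both with overlapping ranges.

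Genes of the BMP pathway had values in both directions. Of 23 BMP and TGF-beta pathway genes tested, 3 were higher and 4 lower at an unadjusted p under 0.05 (4.66% and 4.03% of all genes), 0 were called by edgeR, and the median log2 fold change was 0.28. DESeq2 called Bmpr1a, as did edgeR with no filter on low counts or with all 22 libraries in the fit. The higher count was 1 without E11 replicate 3, 5 without E11 replicate 1 and 6 without E10 replicate 10, the lower count was 3 or 4, and the median ran from 0.03 without E11 replicate 2 to 0.45 without E11 replicate 1. The 4 lower ones were 2 ligands, a receptor and a matrix protein. The ligand Bmp4 was at 41.2, 80.5 and 25.7 at E11 against 95.0, 147 and 117 at E10 (log2 fold change -1.28, SE 0.38, edgeR adjusted p = 0.353), and at 26.2 to 46.4 at E9.5. The E10 libraries were thus above those of both other stages. Bmp6 had 0 counts at E11 and 56 at E10, at least 6.24-fold lower, with E10 libraries at 8.73, 0 and 2.98 CPM, and at least 2.38-fold lower without E10 replicate 8. The receptor was Bmpr1a, described above, and the matrix protein was Ltbp1, which stores latent TGF-beta in the matrix, at 2.42, 1.98 and 6.5 against 16.6, 2.26 and 25.9. The 3 higher ones were Smad5, Id3 and Tgfbr2. Smad5, which carries the BMP signal to the nucleus, was at 69.4, 69.0 and 89.7 against 48.7, 40.2 and 38.0 (log2 fold change 0.85, SE 0.27, edgeR adjusted p = 0.43), and the BMP target Id3 was at 747, 711 and 1061 against 522, 383 and 748, with overlapping ranges. Tgfbr2, the type II TGF-beta receptor, was at 78.6, 140 and 103 against 64.7, 54.5 and 66.4 (log2 fold change 0.80, SE 0.36, edgeR adjusted p = 0.564). Id1, another such target, was at 124, 96.7 and 245 against 52.6, 47.2 and 163 (edgeR adjusted p = 0.623).

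Prtg belongs to the genes of early embryonic growth. Of 14 fetal growth regulators tested, Prtg was the only call by edgeR and DESeq2 called Prtg and Lin28a, 5 were lower (3 without E10 replicate 9) and 0 higher at an unadjusted p under 0.05, beside 4.03% and 4.66% of all genes, and the median log2 fold change was -0.53 (-0.69 to -0.37 without each library in turn). Lin28a, which blocks maturation of let-7 microRNAs, had 0 counts at E11 and 148 at E10, at least 16.1-fold lower. That bound rested on E10 replicate 8, as the E10 libraries were at 28.6, 0.23 and 1.37 CPM, and without it the bound was 1.28-fold, whereas all 4 E9.5 libraries were at 15.2 to 30.1. Its paralogue Lin28b was at 24.8, 35.6 and 3.81 against 42.8, 46.1 and 54.9, and 59.8 to 87.2 at E9.5. Hmga2, a chromatin protein and let-7 target, was at 72.1, 67.4 and 79.3 against 116, 144 and 89.5 (log2 fold change -0.68, SE 0.24, edgeR adjusted p = 0.45), and Igf2bp3, an mRNA-binding let-7 target, at 146, 135 and 121 against 182, 190 and 195 (log2 fold change -0.50, SE 0.19, edgeR adjusted p = 0.488). For Lin28b, Hmga2 and Igf2bp3 every E11 library was below every E10 library, as was so for 6.85% of all genes, and none of these 3 was called by edgeR or DESeq2. Lin28a was called by DESeq2 and by edgeR with no filter on low counts.

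No S phase or mitosis gene was called by edgeR, DESeq2 or limma voom. Of 30 S phase genes tested, 6 were lower and 0 higher at an unadjusted p under 0.05 (4.03% and 4.66% of all genes), and of 30 genes of G2 and mitosis 0 were in either direction. The difference between the lists was not tested. The S phase median was -0.10, and -0.18 to -0.03 without each library in turn. The mitosis median was 0.06, and ran from -0.39 without E11 replicate 1 to 0.17 without E11 replicate 3. Without E11 replicate 1, 5 S phase and 2 mitosis genes were lower at an unadjusted p under 0.05, and 0 were higher. Leaving out each library in turn gave 2 to 6 lower S phase genes, and 0 to 2 mitosis genes in either direction. Without E11 replicate 3 there were 2 lower S phase genes and 2 higher mitosis genes, and S phase had 3 lower without E10 replicate 8 or E10 replicate 9. Outside the S phase list, Orc1, of the origin recognition complex, was at 16.1, 15.8 and 15.2 at E11 against 75.9, 29.6 and 32.3 at E10 (log2 fold change -1.55, SE 0.42, edgeR adjusted p = 0.304). Orc2, also outside it, was at 48.7, 58.1 and 56.3 against 90.3, 112 and 163 (log2 fold change -1.16, SE 0.31, edgeR adjusted p = 0.295). The E10 and E11 libraries did not overlap for either. At E9.5 Orc1 was at 30.2 to 46.4 and Orc2 at 44.2 to 85.0, the latter below every E10 library. Cdc6, which loads the replicative helicase, was at 40.4, 73.0 and 82.3 against 120, 97.6 and 117, and the helicase subunits Mcm2, Mcm5 and Mcm7 had log2 fold changes of -0.72 (SE 0.26), -0.73 (SE 0.25) and -0.48 (SE 0.19). Mcm7 was at 172 to 209 at E11, 253 to 281 at E10 and 137 to 207 at E9.5. Of 15 origin licensing genes tested, 6 were lower and 0 higher at that p (4.03% and 4.66% of all genes) and 0 were called, a list drawn up after values had been seen. This list and that of S phase share members, among them Mcm3 and Mcm6, so their counts are not separate results. The mitotic genes Top2a, at 584, 336 and 198 against 185, 390 and 413, and Mki67, at 217, 142 and 123 against 139, 279 and 176, varied within each stage more than between them.

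**Figure D4:**
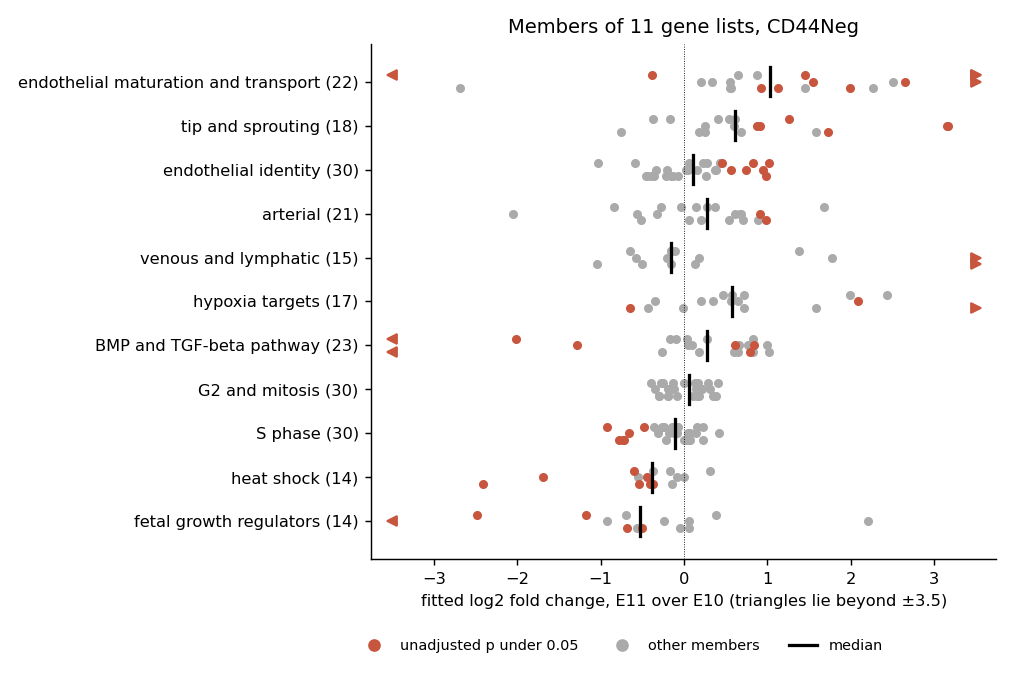
Fitted log2 fold change of E11 over E10 (horizontal axis) for each tested member (points) of 11 gene lists (number tested in parentheses), coloured where the unadjusted p was under 0.05, with the list median as a bar and triangles for members beyond 3.5 in size. The medians run from 1.03 for endothelial maturation and transport to -0.53 for fetal growth regulators, and all mitosis members lie between -0.39 and 0.41.

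Chaperones had counts in 1 direction. Of 14 heat shock genes tested, 7 were lower and 0 higher at an unadjusted p under 0.05 (4.03% and 4.66% of all genes), with 4 lower without E11 replicate 2 or E11 replicate 3, none was called by edgeR, DESeq2 or limma voom, and the median log2 fold change was -0.39 (-0.49 to -0.32 without each library in turn). The mitochondrial chaperonin pair Hspd1 and Hspe1 was at 323, 351 and 265 against 540, 417 and 462, and at 247, 285 and 251 against 375, 352 and 410. Hsp90aa1 was at 865, 683 and 750 against 1007, 1037 and 997. All 3 had E11 libraries below every E10 library (6.85% of all genes), with log2 fold changes of -0.60 (SE 0.19), -0.54 (SE 0.16) and -0.40 (SE 0.14). As heat shock and immediate early genes also respond to dissociation, the latter are given beside them. Their sum was 734 to 800 CPM at E11 and 610 to 828.8 at E10, with Fos at 37.7, 14.6 and 16.01 against 41.8, 111 and 49.0 and Dusp1 at 193, 153 and 224 against 84.8, 43.2 and 120. The part of cell handling in these values was not tested.

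Energy metabolism gave mixed counts. Of 21 glycolysis genes tested, 3 were higher and 1 lower at an unadjusted p under 0.05 (4.66% and 4.03% of all genes), and 5 were higher without E11 replicate 1 or E11 replicate 2. The glucose transporter Slc2a1 was at 864, 1180 and 1208 at E11 against 601, 689 and 762 at E10 (log2 fold change 0.67, SE 0.16, edgeR adjusted p = 0.219), and Pfkfb3, an activator of endothelial glycolysis, at 20.4, 12.5 and 17.3 against 1.01, 4.75 and 1.37 (log2 fold change 2.80, SE 0.82, edgeR adjusted p = 0.353). Both were called by DESeq2. At E9.5 Slc2a1 was at 647 to 763 and Pfkfb3 at 5.47 to 16.1, the latter above every E10 library. Ldha, lactate dehydrogenase, was at 1651, 1590 and 1858 against 2302, 2018 and 1911, and so went the other way without a call. Of 17 hypoxia targets, 2 were higher (4 without E10 replicate 10) and 1 lower at that p, beside the same shares of all genes, the higher ones being Ankrd37, at 51.9, 42.7 and 129 against 4.06, 21.2 and 27.5, and Ndrg1, at 43.9, 55.8 and 40.1 against 8.12, 0 and 0. The hypoxia median was 0.58 (0.40 to 0.77 without each library in turn).

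The counts of 6 other lists were small, beside 4.66% higher and 4.03% lower of all genes. At an unadjusted p under 0.05, there were 0 higher and 1 lower of 23 Wnt pathway genes, 1 and 0 of 17 Notch effectors, 0 and 0 of 14 VEGF and angiopoietin genes, 0 and 0 of 19 HOX genes, 1 and 0 of 21 TCA cycle genes and 1 and 0 of 23 cholesterol synthesis genes. When single libraries were left out, the higher counts ran from 0 to 3 and the lower ones from 0 to 2. Of 15 haemogenic and early blood genes, 1 was lower and 0 higher, namely Runx1, the master regulator of blood emergence, with 0 counts at E11 and 27 at E10, at least 2.93-fold lower. Its E10 libraries were at 5.28, 0.23 and 0 CPM, so that most counts came from E10 replicate 8, without which the 1 remaining count gave no bound. The lower count of this list was 4 without E11 replicate 3 and 5 without E10 replicate 9. Its higher count was 1 without E10 replicate 8 and 2 without E10 replicate 10, and its median ran from -0.62 to -0.15 without each library in turn. Of 20 imprinted genes tested, 3 were higher and 1 lower, with a median of -0.07, and 1 to 4 were higher and 1 or 2 lower without each library in turn, with 1 higher without E11 replicate 1 and 2 without E11 replicate 3 or E10 replicate 8. Mest, an imprinted hydrolase gene, was at 6982, 6805 and 6661 against 6307, 3923 and 4950, Gnas was at 1094, 1447 and 1569 against 460, 1007 and 501, and the maternally expressed RNA Meg3 at 64.3, 18.8 and 24.3 against 174, 126 and 58.6, with overlapping ranges for Meg3. Of 80 ribosomal protein genes, taken by symbol, 15 were higher and 4 lower at an unadjusted p under 0.05, against 4.66% and 4.03% of all genes, and 31 had every E11 library above every E10 library, against 8.1%. The median was 0.15 and the fold changes ran from -0.45 to 0.45 on the log2 scale. The higher count was 5 without E11 replicate 1 or E11 replicate 3, 7 without E10 replicate 10 and 11 to 17 without each of the other 3 libraries, the lower count was 1 to 3, and the list was drawn up after values had been seen.

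The same 2 stages, with the same label dates, were available for the CD44LowKitNeg endothelium, which showed whether a stage difference was shared by a neighbouring population or differed from it. These levels come from a separate fit of 11 libraries. There, E11 against E10 called 330 of 12403 genes (2.66%), 99 higher and 231 lower. Of the 24 genes that are the 12 of smallest p in each direction in CD44Neg, 18 had the same sign in CD44LowKitNeg, beside 55.7% of 11202 genes tested in both, and of the 6 called genes 3 had the same sign. A test of the difference between the changes called 23 genes (0.185%), and 1321 had an unadjusted p under 0.05 (10.7%). That p was reached by 13 of the 24 genes, whose choice used the CD44Neg values that enter this test, so the 2 shares are a description.

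Of these 24 genes, 6 were called in CD44LowKitNeg, of which only Sparcl1 was called in CD44Neg as well. Sparcl1 was at 1528, 1444 and 996 at E11 against 70.5 and 164 at E10, a log2 fold change of 3.49 (SE 0.34, edgeR adjusted p = 0.000325). Pecam1 was at 1573, 1187 and 1092 against 277 and 628 (log2 fold change 1.5, edgeR adjusted p = 0.0237), and Cd93 at 592, 814 and 585 against 337 and 421 (log2 fold change 0.81, edgeR adjusted p = 0.0441). These 3 rose in the neighbouring population, as did Sncg (log2 fold change 1.64, edgeR adjusted p = 0.038), while Hapln1 (-1.83, edgeR adjusted p = 0.0208) and Hnrnpu (-1.25, edgeR adjusted p = 0.00829) fell. For none of these 6 genes did the difference between the populations pass (edgeR adjusted p = 0.187 for Sparcl1 and 0.455 or more for the other 5).

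For 2 of the 24 genes the difference itself was called. Akr1c14 was already at 398 and 63.5 CPM at E10 in CD44LowKitNeg and at 96.2, 222 and 350 at E11, so that its change there was -0.05 (SE 0.61) on the log2 scale, and the difference from CD44Neg was -7.67 (SE 1.31, edgeR adjusted p = 0.0342). Bmpr1a was at 98.6, 90.7 and 101 at E11 against 43.8 and 33.03 at E10 in CD44LowKitNeg, and the difference was 7.11 (SE 0.98, edgeR adjusted p = 0.0116). These are fitted values, which depend on the prior count of the fit for genes with 1 count in a group. Clu, at 57.2, 158 and 76.8 against 88.4 and 125, Abi2, at 5.34, 48.3 and 40.7 against 28.6 and 47.3, and B2m, at 1222, 1753 and 1408 against 1221 and 1328, had overlapping stages in CD44LowKitNeg. The differences for these 3 genes were 3.04, -2.67 and -0.93 and did not pass (edgeR adjusted p = 0.156, 0.311 and 0.203). Prtg was at 4.78, 12.3 and 0 against 0.18 and 0 there (difference 8.27, edgeR adjusted p = 0.156).

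**Figure D5:**
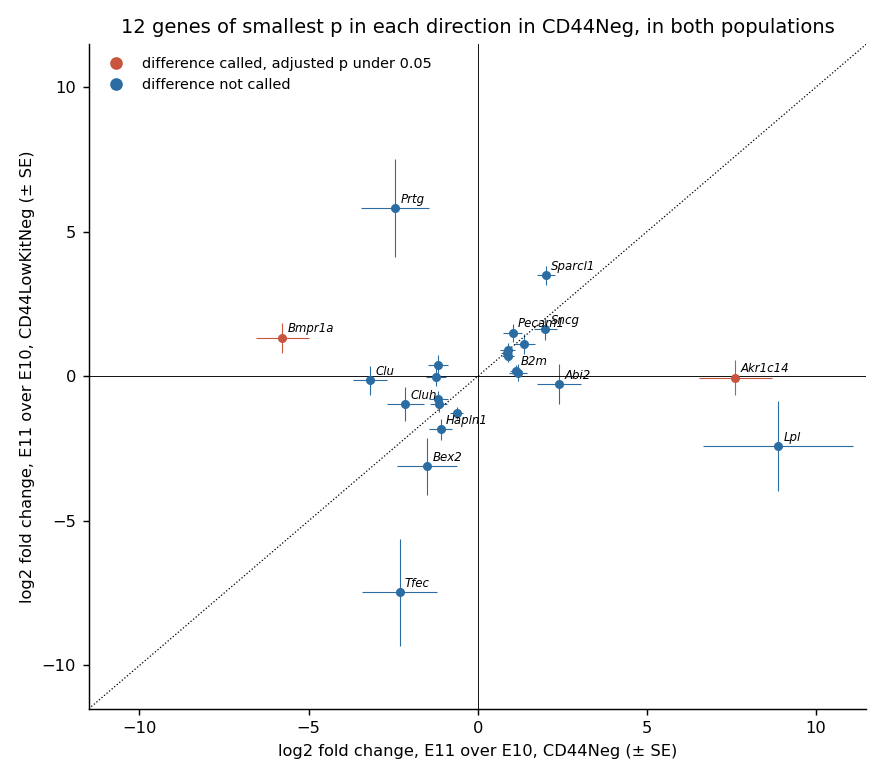
Fitted log2 fold change of E11 over E10 in CD44LowKitNeg (vertical axis) against that in CD44Neg (horizontal axis), both from the fit of 11 libraries, for the 12 genes of smallest p in each direction in CD44Neg, with SE as bars and equality as a dotted line. Genes that were called, whose difference was called or that lie beyond 1.4 in either population are named. Akr1c14 and Bmpr1a are the 2 genes whose difference was called.

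For 3 further genes the difference was called while the stages overlapped in CD44Neg. Pde2a, a cyclic nucleotide phosphodiesterase, was at 208, 161 and 222 at E11 against 195, 148 and 209 at E10, and the neuropilin Nrp2 at 115, 101 and 134 against 104, 130 and 73.5. In CD44LowKitNeg, Pde2a fell from a mean of 9.26 CPM to 0 and Nrp2 from 2.92 to 0, and Aplnr fell from 68.9 to 0.36. The difference between the populations was called for all 3 (edgeR adjusted p under 0.05), with differences of -8.85, -7.28 and -7.28 on the log2 scale. In CD44Neg the log2 fold changes were 0.10, 0.19 and -0.15. As CD44LowKitNeg had 0 counts of Pde2a and Nrp2 at E11, their fitted differences depend on the prior count and are no bound.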

How the data were processed

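Cells were sorted from the AGM as VE-Cadherin+ populations, 25 per library, and amplified with SMART-Seq2 (14 PCR cycles). The authors removed adaptor sequence (FASTX), aligned with RNA STAR and obtained per-gene values from htseq-count, all on a Galaxy server. The submitters' processing notes name FastQC, HTSeq and the mm10 build, and the annotation, strand setting and handling of shared reads are not given in the sources used here. The deposited values are raw counts of 24454 gene symbols without normalization, and every column matched a labelled library.

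Genes were filtered with filterByExpr (minimum count 10, minimum total count 15) and scaled by TMM. The quasi-likelihood test of edgeR 4.0.16 (R 4.3.3, limma 3.58.1) was fitted to the 10 CD44Neg libraries with stage as factor, the contrast was E11 minus E10, and genes were called at a Benjamini-Hochberg adjusted p under 0.05. The difference between populations was the interaction over 11 libraries. SEs were derived from the F statistic. The steps were tested on simulated data. The study used DESeq2 (here 1.42.0), which is an alternative, as are other scalings, filters, fits and leaving out each library. Figures were drawn in matplotlib 3.10.9 (Python 3.11.15). Since fewer than 10 genes were called, the text gives the 12 of smallest p in each direction (1 of them is not reported here), the sorting markers, called list members and members of high level; other members with an unadjusted p under 0.05 were chosen after their values were seen. The genes and lists were chosen with earlier results of these data known. A count of 0 was taken to allow 3 counts per library.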

Additional observations from a re-analysis of the deposited data

Results flagged for a closer look

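The change from E10 to E11 differed between CD44LowKitNeg and CD44Neg, by an edgeR test of the difference itself, for 5 genes described above. The log2 change in CD44LowKitNeg minus that in CD44Neg was -7.67 for Akr1c14, 7.11 for Bmpr1a, -7.28 for Aplnr, -7.28 for Nrp2 and -8.85 for Pde2a. CD44LowKitNeg had 2 libraries at E10, and the number of genes called in this test ran from 3 to 35 when single libraries were left out.

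Among the 12 genes of smallest p in each direction, the 4 E9.5 libraries, which enter the fit, were examined for a library that stands apart. For Sncg 1 library at 54.0 normalized CPM lay above the other 3, at 32.1 to 35.7. Chance flags about 1 in 20 such groups, and 1 of 24 was found. Groups of 3 libraries were not examined.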

How the results depend on the processing

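Against 6 calls in CD44Neg, no filter on low counts gave 60, at least 10 counts in each of the 6 libraries 14, the 6 libraries alone 1, all 22 libraries 2, DESeq2 104, limma voom 14 (all higher at E11), a threshold of 0.01 gave 0 and 0.10 gave 19. Leaving out single libraries gave 0 to 8, and 0 without E11 replicate 1, E11 replicate 2, E9.5 replicate 7 or E10 replicate 10, where 856 to 1155 genes still had an unadjusted p under 0.05. Other scalings, leaving out Rn45s and thinning gave 5 or 6. The median over all genes moved by less than 0.1 under every scaling. The 24 genes that are the 12 of smallest p in each direction kept their direction under every alternative in which they were tested.

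Against 23 calls for the difference between populations, no filter gave 348, DESeq2 258 and single libraries left out 3 (CD44Neg E10 replicate 9) to 35. Against 330 calls in CD44LowKitNeg, DESeq2 gave 897, the 5 libraries alone 72 and single libraries left out 108 (E10 replicate 15) to 327. Where an arm was left with 1 library, it was assumed to vary like the others. The cause of these shifts was not tested.

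Signs turned in CD44Neg when single libraries were left out for Top2a (-0.31 to 0.48), Emcn (-0.14 to 0.14), Cldn5 (-0.080 to 0.14), Aplnr (-0.36 to 0.10), Pde2a (-0.038 to 0.22) and Mki67 (-0.59 to 0.025), and in CD44LowKitNeg for Clu (-0.67 to 0.14), Abi2 (-0.72 to 0.21) and Akr1c14 (-0.84 to 1.81). No paired analysis was possible because no replicate number is shared between the stages. The common biological coefficient of variation in the fit of 10 libraries was 0.595.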
